A study of Glycine max with 12 samples.

Results

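The genes described here are 5 runs of neighbouring genes of soybean (Glycine max) whose transcripts were more abundant in roots given aluminium. A run is a stretch of gene identifiers that follow each other in number along a chromosome. The runs are Glyma.03G015800 to Glyma.03G016400 (7 genes), Glyma.12G069500 to Glyma.12G070000 (6 genes), Glyma.13G176000 to Glyma.13G176800 (9 genes), Glyma.13G291400 to Glyma.13G292200 (9 genes) and Glyma.16G135000 to Glyma.16G137600 (27 genes). They hold 58 of the 56877 genes in the table. The runs were chosen on the aluminium response of these same libraries, so the difference between aluminium and control is given here as a description: its calls are counted, and no p-value is read from them. The comparisons of genotypes were not used in that choice, but they share the 12 libraries with it, so they are not fully independent of it.

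RNA-seq was done on roots of the line labelled OX and of WT, each given 50 µM AlCl3 (Al) or 0 µM AlCl3 (CK). There were 3 libraries in each of the 4 groups, called OX Al, OX CK, WT Al and WT CK. The labels do not spell out OX, do not name a gene or promoter that was altered, and give neither the age of the plants nor the length of the treatment. Nor is it stated that replicate libraries were made from different plants. The p-values thus speak only of the scatter among the libraries at hand, part of which may be technical.

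In acid soils aluminium dissolves as a trivalent cation that binds the wall and membrane of root tip cells and inhibits root elongation. Roots of many plants answer with the release of organic acids that bind the ion, with changes in the cell wall and with the expression of stress genes. Neighbouring genes of plants are often copies that arose by tandem duplication, and such copies can be alike enough that a short read fits several of them. Genes for the steps of a single pathway can also lie side by side in plant genomes. The table does not pair its identifiers with names, and 0 of them matched the 59048 genes of the reference annotation, so no name, role, coordinate or sequence is given for a member. Chromosome and order were read from the identifiers.

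The library totals ran from 15923413 to 18399566 counts. Values are given as counts per 1000000 counts of the library (CPM), which are not corrected for transcript length, so levels are compared between groups and not between genes. The factors that trimmed-mean (TMM) scaling applied to the totals were 0.919 to 0.934 in OX Al, 1.00 to 1.07 in OX CK, 0.913 to 1.00 in WT Al and 1.08 to 1.09 in WT CK, and thus moved with treatment. With the totals scaled by these factors, every ratio of run totals given below moved by less than its SD between libraries. In RNA from whole roots, fewer cells of a type and less RNA per cell cannot be told apart. Neither the root label nor the OX label could be checked against marker genes, since the identifiers carry no names.

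Of the 58 members, 35 had enough counts to be tested and 23 did not. The tested ones were 7 of 7 on chromosome 3, 6 of 6 on chromosome 12, 8 of 9 and 6 of 9 in the runs on chromosome 13, and 8 of 27 on chromosome 16. A total of 14 members, all on chromosome 16, had no count in any of the 12 libraries, which allows a level of up to 0.0145 CPM over the 12 libraries together (3 counts, counting error only). The other 9 untested members had few counts. Among them Glyma.13G176700 had 11 counts in OX Al (5, 1 and 5 by library) and 0 in OX CK, at least 3.74-fold higher with 3 counts over the group as the floor. In WT it had 5 counts in Al (4, 0 and 1 by library) and 0 in CK. The same bound there, 1.61-fold, takes the 5 counts as exact, so no fold is read from it. In the other run on chromosome 13, Glyma.13G291900 had 27 counts in OX Al and 5 in OX CK but 17 in WT Al and 37 in WT CK. Its summed counts thus moved the opposite way in WT, but 25 of the 37 were in WT CK replicate 3. The WT libraries overlapped, with 3, 5 and 9 counts in Al against 4, 8 and 25 in CK. Glyma.16G137300 had 21 counts in OX Al and 21 in OX CK, against 16 in WT Al and 9 in WT CK, after rounding. In summed counts, not every counted member of the runs was thus higher under aluminium in both lines.

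With a call at a Benjamini-Hochberg adjusted p under 0.05 in edgeR's quasi-likelihood test over 37170 genes, 35 of the 35 tested members were higher in OX Al than in OX CK, where 21.2% of all genes tested were called higher. In WT, 35 of 35 were higher in Al than in CK, where 21.5% of all genes tested were called higher. Nothing is read from these shares, because the members were chosen on this response and had to reach a count minimum that a group with high counts can meet alone. The median log2 fold change of the tested members was 2.69 in OX and 2.63 in WT, against -0.02 in OX and -0.04 in WT over all genes tested. The range was 0.59 to 6.73 in OX and 0.63 to 8.12 in WT. The highest value in OX is that of Glyma.12G069500, which had no count in CK, so its fitted fold change depends on the fit's prior count. The medians were the same with that member set at its bound.

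The counts of all members of a run were summed in each library to set the runs side by side. These totals, and a member's share of them, also depend on transcript length and on the number of members. An order among runs or members is thus one of counts only. The chromosome 3 run totalled 148, 135 and 146 CPM in OX Al, against 7.10, 16.6 and 10.5 CPM in OX CK. In WT the same run totalled 119.95, 125 and 75.1 CPM in Al, against 2.90, 2.69 and 3.02 CPM in CK. The ratio of the group means was 12.6 in OX and 37.1 in WT, the widest gap between treatments among the 5 runs in both lines. The Al totals of both lines lay above every CK total, and the 3 OX totals lay above the 3 WT totals in Al and in CK. Without Glyma.03G015800, its member with the most counts, the log2 ratio of OX over WT totals was 0.14 in Al (0.42 with it) and 1.93 in CK (1.99). In Al the fitted difference of OX over WT was positive for 3 of the 7 members and negative for 4.

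The chromosome 12 run had the lowest totals under aluminium, with 5.84, 11.6 and 27.7 CPM in OX Al against 3.83, 1.90 and 0.341 CPM in OX CK, and 30.7, 12.8 and 26.3 CPM in WT Al against 2.89, 3.35 and 7.08 CPM in WT CK. Its libraries scattered more than those of the other runs in each of the 4 groups, with coefficients of variation from 39.9% to 86.3% against 3.90% to 42.2% for the other 4 runs. The ratio of group means was 7.43 in OX (2.89 on the log2 scale) and 5.25 in WT (2.39). Single libraries moved the value in OX, to 2.11 on the log2 scale without OX Al replicate 3 and to 3.75 without OX CK replicate 1, while in WT it ran from 2.14 to 2.90.

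The run from Glyma.13G176000 had the highest mean total in OX Al, WT Al and WT CK, and in OX CK it lay just below the run from Glyma.13G291400. It had 464, 575 and 566 CPM in OX Al against 144, 153 and 211 CPM in OX CK. In WT it held 572, 568 and 609 CPM in Al against 126, 147 and 204 CPM in CK. The ratio was 3.15 in OX and 3.67 in WT, and the lines overlapped in both treatments.

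The run from Glyma.13G291400 had 324, 363 and 327 CPM in OX Al against 148, 163 and 214 CPM in OX CK, a ratio of 1.93. In WT it had 510.1, 496 and 409 CPM in Al against 112, 139 and 154 CPM in CK, a ratio of 3.49. The 3 OX Al totals all lay below the 3 WT Al totals, while the CK totals of the lines overlapped.

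The chromosome 16 run had 191, 201 and 209 CPM in OX Al against 65.6, 91.1 and 116 CPM in OX CK, a ratio of 2.21. In WT it had 200.04, 215 and 168 CPM in Al against 46.7, 52.9 and 50.5 CPM in CK, a ratio of 3.89. The Al totals of the lines overlapped, and the 3 OX CK totals all lay above the 3 WT CK totals. The ratio of Al to CK was thus larger in WT than in OX in 4 of the 5 runs, and in the chromosome 12 run the order of the lines changed with single libraries. These ratios of totals carry no test.

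**Figure D1:**
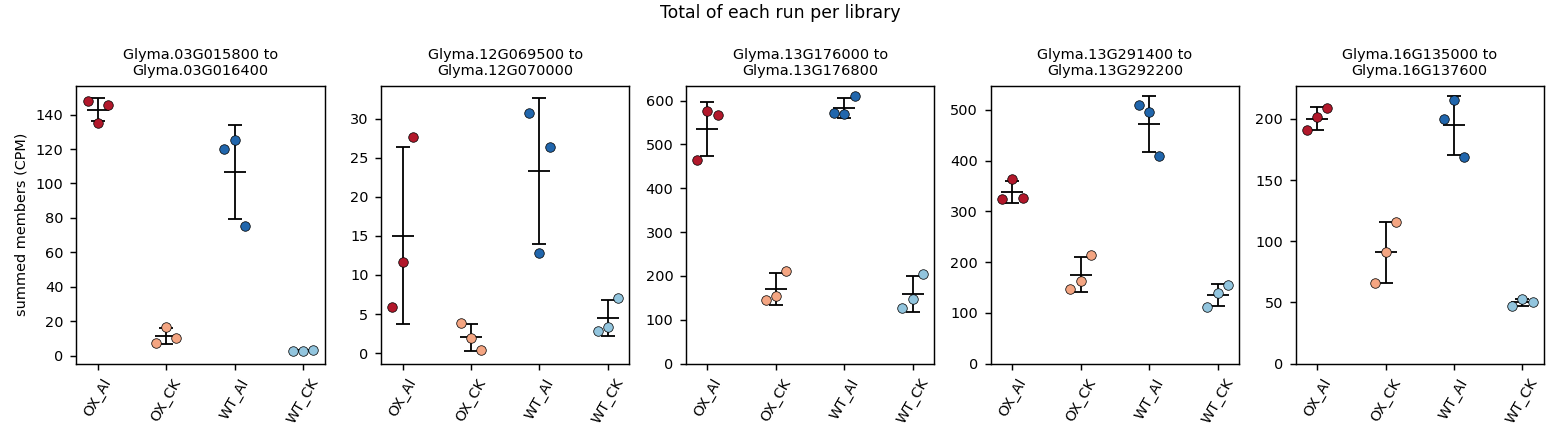
Summed level of each run in CPM (linear axis) in OX Al, OX CK, WT Al and WT CK; bars are means ± SD of 3 libraries and points are the libraries. In the chromosome 3 run the OX CK bar (11.4 ± 4.81 CPM) stands above the WT CK bar (2.87 ± 0.166 CPM), and in the run from Glyma.13G291400 the OX Al bar (338 ± 22.0 CPM) stands below the WT Al bar (472 ± 55.1 CPM).

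A single member held much of each total. Over the 3 libraries, Glyma.13G291700 gave 72.5% of the counts of its run in OX Al, 73.3% in OX CK, 76.3% in WT Al and 64.5% in WT CK. Glyma.13G176400 gave 41.6%, 49.9%, 37.9% and 53.2% of its run in the same order of groups, and Glyma.16G136600 gave 38.8%, 51.3%, 41.6% and 58.4% of the chromosome 16 run. In the chromosome 3 run Glyma.03G015800 gave 37.7% of the counts in OX Al, 51.7% in OX CK, 24.0% in WT Al and 49.3% in WT CK. The most-counted members of these runs on chromosomes 3 and 16 and of the run from Glyma.13G176000 thus had a smaller share under aluminium than in CK in both lines, while other members had larger folds.

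The genotype comparison in CK used a contrast that the choice of the runs did not. Of the 35 tested members, 6 were higher in OX CK than in WT CK by edgeR's quasi-likelihood test, where 2.93% of all genes tested were called higher. None was lower (0 calls), where 1.5% of all genes tested were called lower. At an unadjusted p under 0.05, 12 members were higher, against 8.21% of all genes tested, and 0 lower, against 8.01%. DESeq2 called 8 higher, against 4.67% of all genes, and 0 lower, against 2.85%. By limma-voom 2 were higher (Glyma.03G015800 and Glyma.16G137200), against 2.22% of all genes, and 0 lower, against 1.66%. With only the CK libraries in the edgeR fit, the 1 member called higher was Glyma.16G137000, and Glyma.03G016200 fell below the count filter and was not fitted. The 6 were 4 of the 7 members on chromosome 3 and 2 of the 8 tested on chromosome 16. The other 3 runs had 0 calls, with DESeq2 calling 1 member of the run from Glyma.13G291400 higher, limma-voom calling 0, and 1 of their members under an unadjusted p of 0.05. The median log2 fold change of the tested members in CK was 0.29, against -0.00 over all genes tested.

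The genotypes were compared under aluminium in the same way. Of the 35 tested members, 2 were higher in OX Al than in WT Al, where 4.16% of all genes tested were called higher, and 1 was lower, where 1.91% were called lower. The members' shares under aluminium are thus near those of all genes. The median log2 fold change of the tested members was -0.19, against -0.05 over all genes tested. The sign was negative for 24 of the 35, among them 6 of 6 on chromosome 12 and 6 of 6 tested in the run from Glyma.13G291400, where none passed the test (0 calls by edgeR, DESeq2 and limma-voom, and 2 lower at an unadjusted p under 0.05, both in the run from Glyma.13G291400). The share of negative signs over all genes was not computed. Members of a run come from the same libraries, so their signs are not separate observations. Over all genes tested, 9.05% were higher and 7.45% lower at an unadjusted p under 0.05, where 4 of the 35 tested members were higher and 5 lower. The shares of all genes called in Al were 5.61% higher and 2.87% lower by DESeq2, and 4.92% higher and 2.16% lower by limma-voom. Each of these tools called 3 of the tested members higher and 1 lower.

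**Figure D2:**
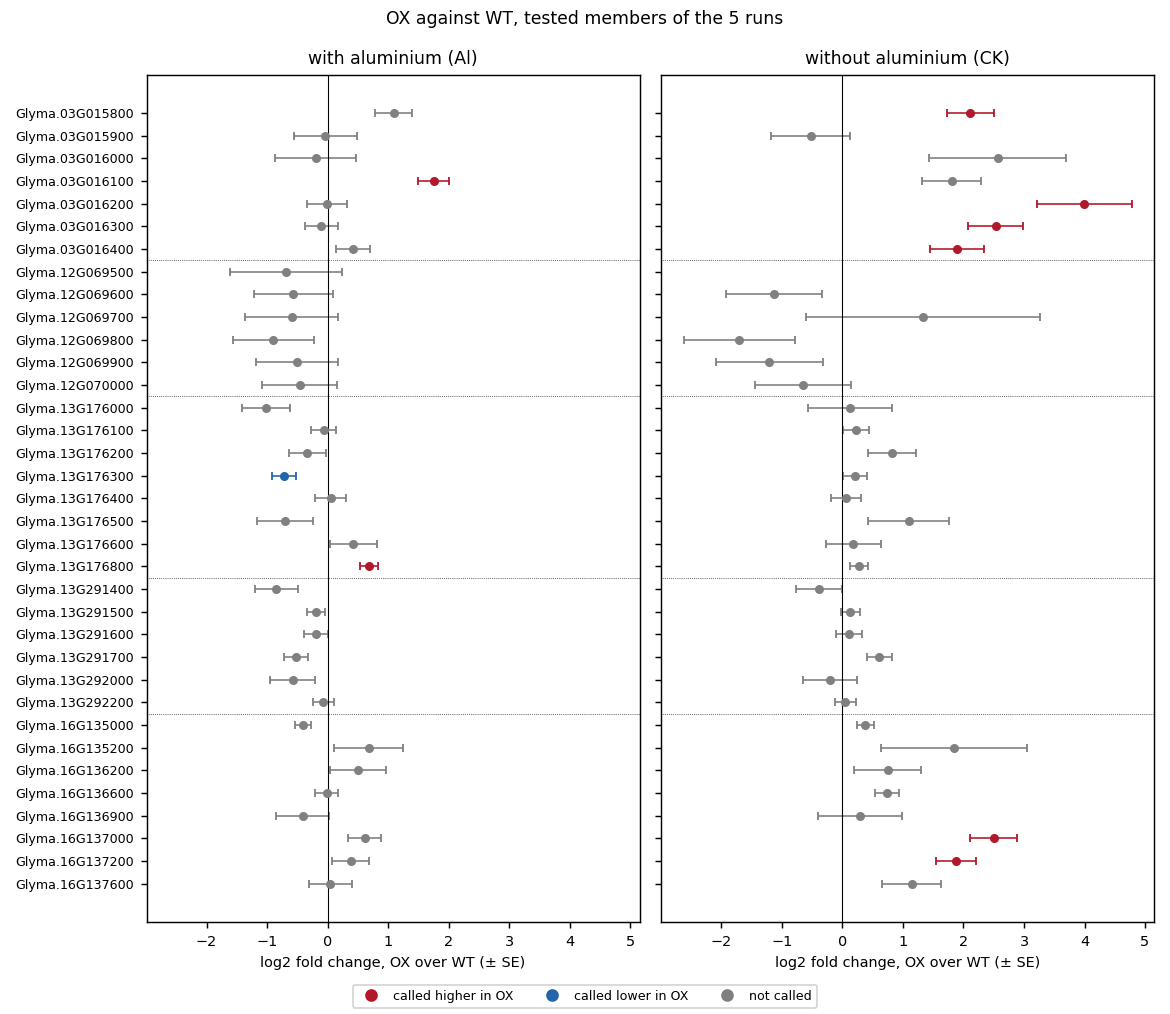
Log2 fold change of OX over WT with its SE for the 35 tested members, in CK and in Al, with dotted lines between the runs; red marks members called higher in OX, blue members called lower and grey those not called. In CK the red points are 4 members on chromosome 3 and 2 on chromosome 16, and in Al Glyma.03G016100 lies farthest to the right at 1.75.

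The 7 members of the chromosome 3 run were tested in all comparisons, and none held a value that was not whole. Glyma.03G015800 had 49.5, 49.7 and 61.6 CPM in OX Al against 3.89, 8.97 and 4.78 CPM in OX CK, and 32.2, 26.01 and 18.7 CPM in WT Al against 2.01, 1.32 and 0.952 CPM in WT CK. Both OX groups lay above their WT counterparts without overlap, and the 4 groups had 4 separate ranges. Its log2 fold change of Al over CK was 3.34 ± 0.34 (SE) in OX and 4.36 ± 0.39 in WT. In CK it was higher in OX by 2.11 ± 0.39 on the log2 scale (edgeR adjusted p = 0.009). The call ended without WT CK replicate 2 (edgeR adjusted p = 0.0506, from 2.68e-06 to 0.0708 over all alternatives). In Al the difference of 1.09 ± 0.31 did not pass in edgeR (adjusted p = 0.064) and passed in DESeq2 (0.0174), in limma-voom (0.0139) and with only the Al libraries in the edgeR fit (0.00957). It also passed without WT CK replicate 3 (edgeR adjusted p = 0.0467), OX CK replicate 1 (0.0416) or OX CK replicate 2 (0.0175).

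Glyma.03G016200 had 11.97, 9.42 and 11.7 CPM in OX Al against 0.377, 1.03 and 0.682 CPM in OX CK. In WT it had 12.2, 15.1 and 6.59 CPM in Al against 0.0592, 0 and 0.0560 CPM in CK, where 2 counts were recorded over the 3 libraries. The Al libraries of the lines overlapped, and the OX CK libraries all lay above the WT CK libraries. Its level was 291 times as high in WT Al as in WT CK (95% exact counting interval 80.1 to 2410), the largest fitted rise of the run in WT. The OX CK level was 18.3 times that of WT CK (interval 4.73 to 157), a fitted log2 difference of 3.997 ± 0.79 (edgeR adjusted p = 0.0135). That call ended without OX CK replicate 2 (edgeR adjusted p = 0.055) or WT CK replicate 2 (0.0631) and by limma-voom (adjusted p = 0.129). The range was 0.00309 to 0.129 over the 20 alternatives in which it was fitted. With only the CK libraries it fell below the count filter and was not fitted. In Al the fitted difference between the lines was -0.01 ± 0.33 (edgeR adjusted p = 0.995).

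Glyma.03G016300, the next gene, had 37.7, 40.6 and 33.6 CPM in OX Al against 1.26, 2.23 and 2.73 CPM in OX CK, and 44.6, 47.9 and 30.03 CPM in WT Al against 0.237, 0.180 and 0.672 CPM in WT CK. The pattern was that of Glyma.03G016200, with Al libraries that overlapped between lines and OX CK libraries that all lay above WT CK. The OX over WT difference was 2.53 ± 0.45 in CK (edgeR adjusted p = 0.0079), or 3.33 without WT CK replicate 3, and -0.10 ± 0.27 in Al (edgeR adjusted p = 0.92). The call in CK ended by limma-voom (adjusted p = 0.0598) and with only the CK libraries in the edgeR fit (0.0845).

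Glyma.03G016400, the last gene of the run, had 34.3, 27.1 and 28.04 CPM in OX Al against 1.005, 2.50 and 1.48 CPM in OX CK, and 24.1, 28.8 and 15.5 CPM in WT Al against 0.355, 0.659 and 0.392 CPM in WT CK. Its OX CK libraries all lay above those of WT CK, with a log2 difference of 1.89 ± 0.45 (edgeR adjusted p = 0.0339). This call ended without OX CK replicate 2 (edgeR adjusted p = 0.143) or 3 (0.0541) and without WT CK replicate 1 (0.109), 2 (0.0661) or 3 (0.0943), with a range of 0.000853 to 0.218 over all alternatives.

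Glyma.03G016100 stood apart in Al. It had 9.71, 6.52 and 7.11 CPM in OX Al against 0.251, 0.489 and 0.284 CPM in OX CK, and 2.21, 2.67 and 2.22 CPM in WT Al against 0.118, 0.0599 and 0.112 CPM in WT CK. Every OX Al library lay above every WT Al library, and the difference of 1.75 ± 0.26 passed (edgeR adjusted p = 0.00138). The call held in every alternative tried. In CK the difference of 1.81 ± 0.49 did not pass (edgeR adjusted p = 0.0738). The rise with Al was 4.63 ± 0.32 in OX and 4.68 ± 0.39 in WT.

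Glyma.03G015900 had the smallest rise of the run in WT. It had 0.794, 0.664 and 1.72 CPM in OX Al against 0.188, 0.380 and 0.227 CPM in OX CK, and 1.57, 0.889 and 0.886 CPM in WT Al against 0.118, 0.479 and 0.616 CPM in WT CK. The log2 fold change of Al over CK was 2.12 ± 0.61 in OX and 1.63 ± 0.57 in WT, and the lines overlapped in both treatments. Glyma.03G016000 was also low, with 0, 0 and 0.224 CPM in WT CK and at most 3.66 CPM in any library.

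**Figure D3:**
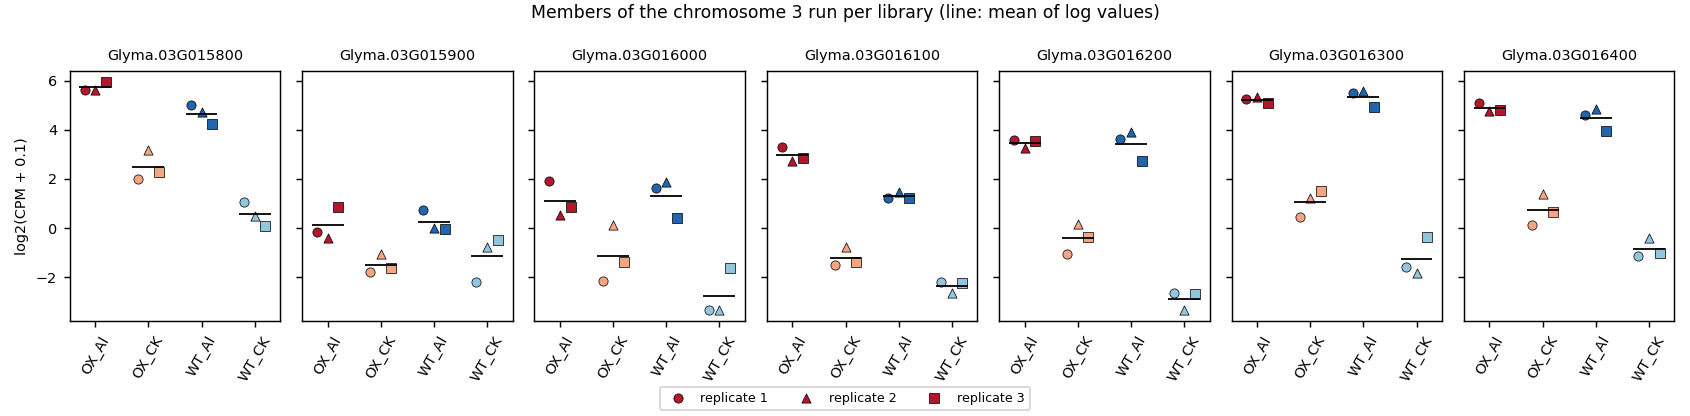
Level of each member of the chromosome 3 run in the 12 libraries as log2(CPM + 0.1); symbols mark the replicate number and lines the mean of the log values. For Glyma.03G016200, Glyma.03G016300 and Glyma.03G016400 the OX CK points lie above the WT CK points while the Al points of the lines overlap, and for Glyma.03G016100 all OX Al points lie above the WT Al points.

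The genes beside the chromosome 3 run did not share its response. The runs were chosen on this response, so a contrast with the genes beside a run can follow from where its range was cut. This holds for the other runs as well. The log2 fold changes of Al over CK were 0.30 in OX and 0.08 in WT for Glyma.03G015600, and 0.12 and 0.14 for Glyma.03G015700, just before the run. After the run, Glyma.03G016500 had 0.25 in OX and 0.08 in WT, and Glyma.03G016600 had -1.50 in OX and -0.63 in WT. Just inside the run, Glyma.03G015800 had 3.34 in OX and 4.36 in WT, and Glyma.03G016400 had 4.30 in OX and 5.78 in WT.

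On chromosome 12 all 6 members were tested, and all 6 held values that were not whole in some libraries, so their reads may be shared with near copies and the levels of single members are uncertain. Glyma.12G069600, the member with the highest mean level and the smallest rise in WT, had 2.11, 3.25 and 6.73 CPM in OX Al against 1.36, 0.663 and 0 CPM in OX CK, and 7.88, 3.47 and 7.16 CPM in WT Al against 1.15, 0.973 and 2.48 CPM in WT CK. The Al libraries lay above the CK libraries in each line, and the lines overlapped in both treatments. The log2 fold change of Al over CK was 2.76 ± 0.76 in OX, or 3.72 without OX CK replicate 1 and 2.17 without OX CK replicate 3, and 2.19 ± 0.70 in WT.

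Glyma.12G069500 had no count in any CK library of either line. It had 0, 0.422 and 1.66 CPM in OX Al and 1.53, 0.808 and 1.15 CPM in WT Al, so that OX Al replicate 1 was at 0 like the controls. Its level was at least 12.6-fold higher in OX Al than in OX CK, and at least 20-fold higher in WT Al than in WT CK, with 3 counts over the CK group as the floor. Glyma.12G069700 was close to this, with 45 counts in OX Al and 3 in OX CK, a ratio of 15.3 (95% exact counting interval 4.91 to 76.9). In WT it had 69 counts in Al and 1 in CK, a ratio of 66.7 (interval 11.6 to 2670).

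The other 3 members on chromosome 12, Glyma.12G069800, Glyma.12G069900 and Glyma.12G070000, had log2 fold changes of Al over CK between 2.82 and 3.25 in OX and between 2.44 and 2.63 in WT. In both Al groups the 6 members shared the lowest library. OX Al replicate 1 was the lowest of its group for 6 of 6 members and OX Al replicate 3 the highest for 6 of 6, and WT Al replicate 2 was the lowest for 6 of 6. The 2 genes on each side had the same lowest and highest library in OX Al, so that order was not particular to the members. In WT Al, replicate 2 was also the lowest for Glyma.12G069400 and Glyma.12G070200, but not for Glyma.12G069300 and Glyma.12G070100. In WT CK the lowest library was replicate 1 for 3 members and replicate 2 for 3. No member differed between the lines by edgeR's quasi-likelihood test, DESeq2 or limma-voom (0 calls each in CK and in Al, and 0 at an unadjusted p under 0.05). With SEs of the log2 difference from 0.62 to 1.93 in this run, for the members with counts in both groups, a log2 difference of 1 was smaller than 2 SEs and not detectable.

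**Figure D4:**
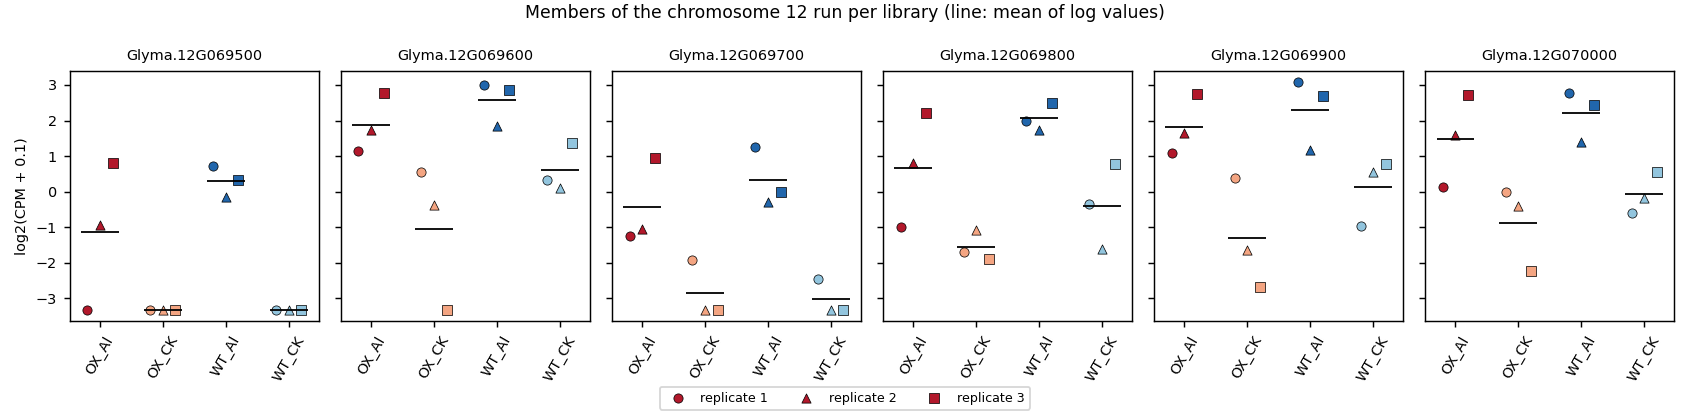
Level of each member of the chromosome 12 run in the 12 libraries as log2(CPM + 0.1); symbols mark the replicate number and lines the mean of the log values. In OX Al the circle (replicate 1) is lowest and the square (replicate 3) highest in all 6 panels, and Glyma.12G069500 is at 0 counts in the 6 CK libraries.

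Beside this run, Glyma.12G069300 and Glyma.12G069400 had log2 fold changes of 0.21 and 1.31 in OX and 0.19 and 0.73 in WT. The gene just after it, Glyma.12G070100, had -0.07 in OX and 0.29 in WT. The next gene on, Glyma.12G070200, which lies outside the range, had 0.268, 0.590 and 1.96 CPM in OX Al against 0.0666, 0 and 0 CPM in OX CK, and 2.25, 1.10 and 1.74 CPM in WT Al against 0.0758, 0 and 0.143 CPM in WT CK. With 49 counts in OX Al and 1 in OX CK, its ratio in OX was 49.9 (95% exact counting interval 8.55 to 2010), and its fitted log2 fold change in WT was 4.51 ± 0.91. A gene with a rise within the range of the 6 members thus lay past the end of the run, with 1 flat gene between.

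In the run from Glyma.13G176000 the rises were uneven. Glyma.13G176000 had the largest in WT, with 4.58, 6.64 and 7.66 CPM in OX Al against 0.628, 0.360 and 0.114 CPM in OX CK, and 7.11, 10.2 and 22.7 CPM in WT Al against 0.474, 0.359 and 0.224 CPM in WT CK. The log2 fold change was 4.24 ± 0.53 in OX and 5.38 ± 0.54 in WT. WT Al replicate 3 stood well above the other WT Al libraries, and the Al libraries of the lines overlapped.

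Glyma.13G176400, the member with the most counts, had 195, 241 and 233 CPM in OX Al against 65.3, 74.1 and 114 CPM in OX CK, and 234, 213 and 217 CPM in WT Al against 60.3, 76.7 and 116 CPM in WT CK. Its log2 fold change was 1.57 ± 0.26 in OX and 1.57 ± 0.26 in WT, and the lines differed by 0.06 ± 0.25 in CK and 0.05 ± 0.25 in Al, neither of which passed (edgeR adjusted p = 0.95 and 0.962). Glyma.13G176100, whose values like those of Glyma.13G176400 were not whole in any of the 12 libraries, had means of 198 ± 28.1 CPM in OX Al, 53.3 ± 11.9 CPM in OX CK, 212 ± 16.2 CPM in WT Al and 47.5 ± 11.9 CPM in WT CK (SD, n = 3).

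Glyma.13G176300 was lower in OX under aluminium. It had 36.1, 40.9 and 40.5 CPM in OX Al against 18.2, 13.1 and 11.4 CPM in OX CK, and 48.6, 68.3 and 83.5 CPM in WT Al against 14.4, 13.1 and 10.7 CPM in WT CK. The CK libraries overlapped between lines, and the 3 OX Al libraries all lay below the 3 WT Al libraries, with a log2 difference of -0.72 ± 0.19 (edgeR adjusted p = 0.0475). The call ended without WT Al replicate 2 (edgeR adjusted p = 0.147), WT Al replicate 3 (0.167), WT CK replicate 2 (0.0717), OX CK replicate 2 (0.0726) or OX Al replicate 1 (0.189), 2 (0.134) or 3 (0.134). It also ended with DESeq2 size factors (edgeR adjusted p = 0.0507) and with no filter on low counts (0.0549), with a range of 0.0148 to 0.189 over all alternatives.

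Glyma.13G176800, the last gene of the run, went the other way. It had 22.8, 20.8 and 20.5 CPM in OX Al against 10.5, 12.2 and 12.1 CPM in OX CK, and 13.8, 15.8 and 11.2 CPM in WT Al against 10.4, 9.94 and 9.57 CPM in WT CK. Its rise with Al was the smallest of the run in both lines, 1.05 ± 0.15 in OX and 0.63 ± 0.16 in WT. All OX Al libraries lay above all WT Al libraries, by 0.69 ± 0.15 (edgeR adjusted p = 0.0184). This call ended without WT Al replicate 3 (edgeR adjusted p = 0.0571), OX Al replicate 1 (0.0523) or OX Al replicate 3 (0.0514), with a range of 0.000625 to 0.0571 over all alternatives. The same run thus held a member called higher and a member called lower in OX Al, 5 genes apart in number.

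Glyma.13G176200, Glyma.13G176500 and Glyma.13G176600 completed the tested members, with log2 fold changes of Al over CK of 3.64, 2.52 and 2.69 in OX and 4.79, 4.32 and 2.45 in WT. Beside the run, Glyma.13G175800 had -0.36 in OX and -0.02 in WT, and Glyma.13G176900 had -0.30 in OX and -0.34 in WT. Glyma.13G175900 had 12 counts over all libraries and Glyma.13G177000 had none.

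The run from Glyma.13G291400 was led in level by Glyma.13G291700. It had 238, 269.8 and 228 CPM in OX Al against 106, 122 and 156 CPM in OX CK, and 392, 386 and 301 CPM in WT Al against 69.4, 95.1 and 96.99 CPM in WT CK. The OX libraries lay below the WT libraries in Al and above them in CK, without overlap in either. Its log2 fold change of Al over CK was 1.10 ± 0.20 in OX and 2.23 ± 0.21 in WT. The OX over WT difference was 0.61 ± 0.20 in CK (edgeR adjusted p = 0.132) and -0.52 ± 0.20 in Al (edgeR adjusted p = 0.199). Neither passed in edgeR, and the difference in CK passed in DESeq2 (adjusted p = 0.0412). The rise in OX minus that in WT was -1.13 ± 0.29.

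Glyma.13G292000 had the largest rise of that run in WT, with 7.27, 4.35 and 6.56 CPM in OX Al against 2.01, 0.652 and 1.19 CPM in OX CK, and 12.2, 10.4 and 4.88 CPM in WT Al against 1.66, 1.32 and 1.57 CPM in WT CK. Its log2 fold change was 2.42 ± 0.42 in OX and 2.79 ± 0.42 in WT, and the lines overlapped in both treatments. At the other end of the range, Glyma.13G292200 had 31.3, 36.3 and 32.9 CPM in OX Al against 21.8, 20.9 and 32.3 CPM in OX CK, and 37.2, 32.02 and 39.2 CPM in WT Al against 22.4, 23.04 and 29.7 CPM in WT CK. OX CK replicate 3 reached the level of the OX Al libraries, and the fold change was 0.59 ± 0.17 in OX and 0.71 ± 0.17 in WT.

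Glyma.13G291400, Glyma.13G291500 and Glyma.13G291600 rose by between 1.39 and 1.81 in OX and between 1.77 and 2.11 in WT on the log2 scale. The 3 untested members were Glyma.13G291800, Glyma.13G291900 and Glyma.13G292100. Glyma.13G291800 had 1 count in OX Al, 1 in OX CK, 14 in WT Al and 1 in WT CK, and 13 of the 14 were in WT Al replicate 3. Before the run, Glyma.13G291200 had -0.23 in OX and -0.46 in WT and Glyma.13G291300 had -0.43 and -0.05. The 2 genes after it had almost no counts.

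The chromosome 16 run was sparse, with 8 tested members among 27, and 14 of the others were without a count. Glyma.16G136600, the member with the most counts and the smallest rise in WT, had 78.4, 79.2 and 76.3 CPM in OX Al against 35.4, 41.1 and 63.7 CPM in OX CK, and 80.5, 89.4 and 72.6 CPM in WT Al against 27.1, 33.1 and 27.7 CPM in WT CK. The log2 fold change was 0.90 ± 0.20 in OX and 1.65 ± 0.20 in WT. All OX CK libraries lay above all WT CK libraries, and the difference of 0.73 ± 0.20 did not pass in edgeR (adjusted p = 0.0598) and passed in DESeq2 (adjusted p = 0.00981).

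Glyma.16G137000 was higher in OX CK than in WT CK. It had 17.8, 14.4 and 21.3 CPM in OX Al against 1.69, 3.58 and 2.69 CPM in OX CK, and 13.1, 14.6 and 8.09 CPM in WT Al against 0.474, 0.479 and 0.504 CPM in WT CK. The WT CK libraries lay close together and every OX CK library lay above them, by 2.50 ± 0.39 on the log2 scale (edgeR adjusted p = 0.00356). By limma-voom this difference did not pass (adjusted p = 0.0563). Its values were not whole in 7 of the 12 libraries, so its reads may be shared with near copies. In Al the OX over WT difference of 0.61 ± 0.28 did not pass (edgeR adjusted p = 0.295).

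Glyma.16G137200 showed the same order of groups, with 49.96, 61.8 and 68.7 CPM in OX Al against 12.5, 26.3 and 31.9 CPM in OX CK, and 52.3, 49.9 and 39.6 CPM in WT Al against 4.74, 6.71 and 8.68 CPM in WT CK. OX CK replicate 1 was the lowest of its group and still above the WT CK libraries. The difference in CK was 1.87 ± 0.33 (edgeR adjusted p = 0.00681) and that in Al 0.38 ± 0.30 (edgeR adjusted p = 0.639). The call in CK ended with only the CK libraries in the edgeR fit (adjusted p = 0.0614).

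Glyma.16G135200 had the largest rise of the run in WT, at low counts. It had 1.59, 1.69 and 2.84 CPM in OX Al against 0.0628, 0 and 0.398 CPM in OX CK, and 1.34, 1.78 and 0.776 CPM in WT Al against 0, 0.0599 and 0.0560 CPM in WT CK, where 2 counts were recorded. The WT Al level was 33.4 times the WT CK level (95% exact counting interval 8.89 to 281), and the fitted rise in OX was 3.83 ± 0.73, or 5.96 without OX CK replicate 3, which held most of the 8 counts of its group. The remaining tested members, Glyma.16G135000, Glyma.16G136200, Glyma.16G136900 and Glyma.16G137600, rose by between 1.15 and 3.24 in OX and between 1.73 and 4.01 in WT on the log2 scale.

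Before the chromosome 16 run, the log2 fold changes of Al over CK were -0.95 in OX and -1.41 in WT for Glyma.16G134800 and -0.11 in OX and -0.59 in WT for Glyma.16G134900. After it, Glyma.16G137700 had no count and Glyma.16G137800 had 0.43 in OX and 0.16 in WT. Counted members of this run could stand between members without a count, as Glyma.16G135200 did between Glyma.16G135100 and Glyma.16G135300.

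**Figure D5:**
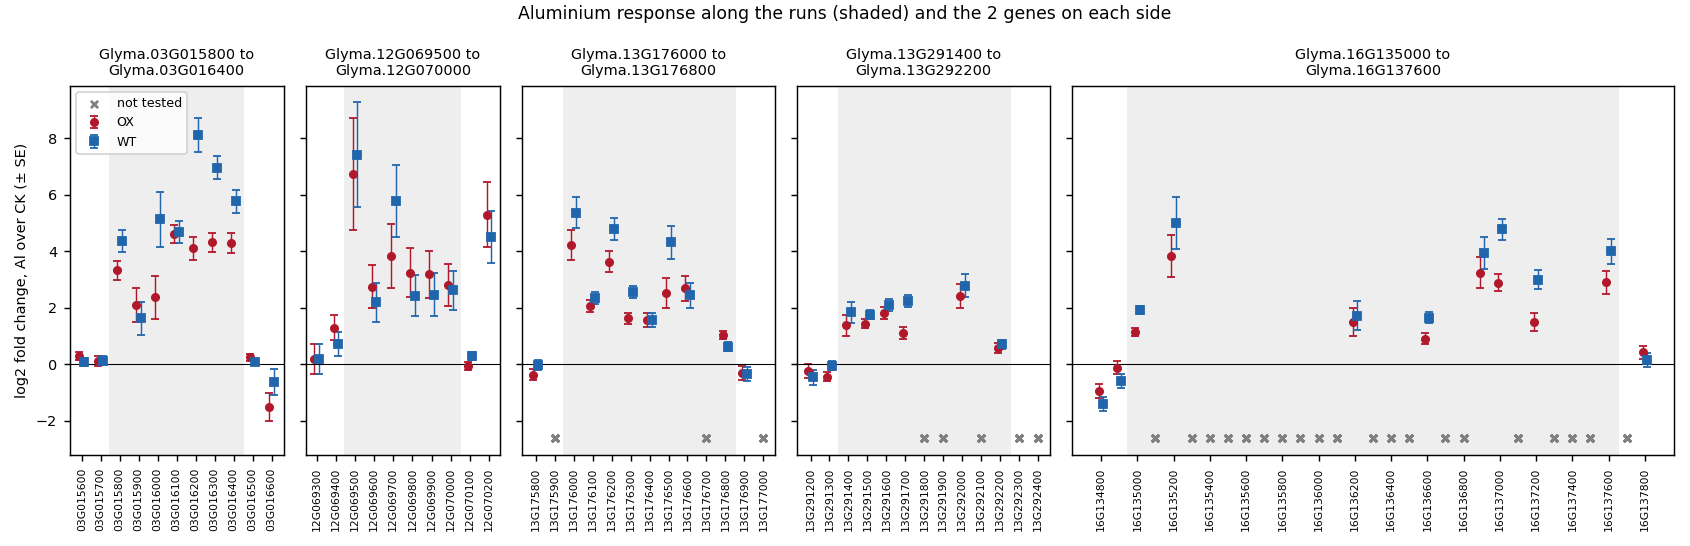
Log2 fold change of Al over CK with its SE in OX and in WT for the members of the 5 runs (shaded) and the 2 genes on each side, in the order of the identifiers; grey crosses at the foot mark genes that were not tested and carry no value. The members range from 0.59 to 6.73 in OX and from 0.63 to 8.12 in WT, and Glyma.12G070200, outside the shaded chromosome 12 run, lies at 5.30 in OX and 4.51 in WT.

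How far the Al response itself differed from line to line is given last. That difference is built from the 2 contrasts that chose the runs, so it is not independent of that choice, its values are a description, and nothing is read from the calls. Of the 35 tested members, 2 were called with a smaller response in OX by edgeR's quasi-likelihood test, where 0.748% of all genes tested were. None was called with a larger response (0 calls), where 0.88% of all genes tested were. At an unadjusted p under 0.05, 11 were smaller, against 6.2% of all genes, and 0 larger, against 5.97%. DESeq2 called 6 smaller, against 1.97% of all genes, and 0 larger, against 2.05%. By limma-voom 0 were smaller, against 0.374% of all genes, and 0 larger, against 0.842%. The median difference of the tested members was -0.70 on the log2 scale, against -0.03 over all genes tested. The sign of the difference was negative for 28 of the 35, and the share of negative signs over all genes was not computed.

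Both calls were neighbours on chromosome 3. For Glyma.03G016200 the response in OX minus that in WT was -4.01 ± 0.87, and for Glyma.03G016300 it was -2.64 ± 0.53. Their Al levels overlapped between the lines and their CK levels did not. Glyma.03G016200 had 2 counts in WT CK in all. Leaving out 1 library ended the call of Glyma.03G016200 in 10 of 12 fits, all but those without WT Al replicate 3 or OX CK replicate 1, and the difference ran from -4.35 to -3.52. For Glyma.03G016300 it ended in 9 of 12, all but those without WT CK replicate 3, WT Al replicate 3 or OX CK replicate 1, and the difference ran from -3.43 to -2.33, the first of these without WT CK replicate 3.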

How the data were processed

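Total RNA from soybean roots was sequenced in 12 libraries, 3 in each of 4 groups taken from the labels. Values were deposited by the authors as estimated counts in 1 table, with no scaling between libraries. Of these, 13.25% were not whole (tolerance 1e-06), and 25 of the 58 members held such a value. Per the submitters' processing notes, which state neither role nor order, the tools were HISAT2 2.1.0, TopHat2, Bowtie2 2.2.3, HTSeq 0.6.0 and CASAVA. How decimals arose, and which genome build, strand setting and annotation were used, is not given in the sources used here, so reads of near copies, of overlapping genes or of antisense genes may be divided among members. Library totals of 15923413 to 18399566 counts make 1 count about 0.0543 to 0.0628 CPM, and 3 counts in a library 0.163 to 0.188 CPM. Floors and intervals reflect counting error alone. A bound against a group with 0 counts takes the counts of the higher group as exact.

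The test had been planned for whole counts; the estimated counts were rounded to whole numbers and the same test kept. Of 56877 genes (8 lines of stray text were left out), filterByExpr (minimum count 10, minimum total 15) kept 37170. After TMM scaling, edgeR 4.0.16 in R 4.3.3 fitted 1 mean per group over all 12 libraries, with the robust quasi-likelihood F-test, two-sided. A call needed an adjusted p under 0.05 (Benjamini-Hochberg, all tested genes), and adjusted p-values are from this test unless another is named. The SE, which is approximate and least reliable for fold changes near 0, is the absolute log2 fold change divided by the root of F. Counting intervals of ratios are exact at 95%. The script was tested on simulated data.

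Members, gene lists and tests were chosen with earlier results of these data known. Per-library values are given, by rule, for the tested member of each run with the highest mean CPM, those with the largest and the smallest fold change of Al over CK in WT, and members called in a comparison of the lines. Genes outside these, among them Glyma.03G016000, Glyma.12G069700, Glyma.12G070200, Glyma.13G176100, Glyma.13G176700, Glyma.13G291800, Glyma.13G291900 and Glyma.16G137300, were picked after their values were seen. Alternatives were DESeq2 1.42.0 and its size factors, limma-voom (limma 3.58.1), no filter, the replicate number as a block, only the groups compared, other thresholds, rounding down, whole-valued members only, and each library left out in turn. For totals of a run they were TMM scaling and leaving out the member with the most counts.

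Replicate numbers were checked as pairs by whether libraries with the same number deviated alike from the means of their groups, as a correlation. The correlations for replicates 1 to 3 were 0.128, 0.219 and 0.36 between WT Al and WT CK, and 0.412, 0.123 and 0.579 between OX CK and WT CK, all over 0.1, so those libraries were taken as paired, on the data alone. They were 0.206, -0.00457 and 0.163 between OX Al and OX CK and 0.0342, -0.132 and -0.00241 between OX Al and WT Al, which were not taken as paired. Of 6 libraries, 4 correlated best with their own number between WT Al and WT CK, 4 between OX CK and WT CK and 4 between OX Al and OX CK. Between OX Al and WT Al 0 did. The pairing of OX Al with OX CK is thus unsettled. The main test used no pairing, so its p-values ignore it, also those of OX CK against WT CK. The fit with the replicate block is the one that includes it.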

Additional observations from a re-analysis of the deposited data

Results flagged for a closer look

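A pair of neighbouring members on chromosome 3 was picked out because edgeR's quasi-likelihood test called the difference of their Al responses between the lines. That difference is built from the 2 contrasts that chose the runs, so the values are a description and nothing is read from the calls. For Glyma.03G016200 the response in OX minus that in WT was -4.01 ± 0.87 on the log2 scale (SE, adjusted p = 0.0436). Its counts summed over the 3 libraries were 563 in OX Al and 37 in OX CK, and 601 in WT Al and 2 in WT CK. For Glyma.03G016300 the difference was -2.64 ± 0.53 (SE, adjusted p = 0.0306), with 1894 counts in OX Al and 109 in OX CK, and 2170 in WT Al and 19 in WT CK. In both genes every OX CK library lay above every WT CK library. Over the alternatives the adjusted p ran from 0.0106 to 0.239 for Glyma.03G016200 and from 0.000122 to 0.111 for Glyma.03G016300. Leaving out 1 library ended the call of Glyma.03G016200 in 10 of 12 fits and that of Glyma.03G016300 in 9 of 12.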

How the results depend on the processing

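No called member among those named by rule changed direction. The direction of the other members was not followed over the alternatives. Of the ratios of run totals, those of OX over WT nearest to 0 changed sign: the run from Glyma.13G176000 in CK (log2 0.094) gave -0.047 without WT CK replicate 1 and -0.095 without OX CK replicate 3, and chromosome 16 in Al (0.041) gave -0.052 without WT Al replicate 3. Counts of called members within 1.5 times those reported are left out here. Members lower in OX Al numbered 0 with DESeq2 size factors, with no filter on low counts, at an adjusted p under 0.01 and at a log2 fold change of 1 or more. Members higher in OX Al numbered 1 at each of these last 2 thresholds and 1 among whole-valued members. Members higher in OX CK numbered 2 by limma-voom and 1 with only the groups compared in the fit, where Glyma.03G016200 was not fitted. Members with a smaller Al response in OX numbered 6 by DESeq2, 0 by limma-voom and 0 at an adjusted p under 0.01, and this test could not be fitted with only the groups compared. Among whole-valued members 12 were higher with Al in WT and 12 in OX, since only these were tested. The causes of the other changes were not tested. With 1 library left out, the counts ran from 30 to 35 for Al in WT, 26 to 36 for Al in OX, 3 to 7 for higher in OX CK, 1 to 3 for higher in OX Al, 0 to 1 for lower in OX Al and 0 to 5 for a smaller Al response in OX. The lowest count for OX CK, 3, came without WT CK replicate 2, and the highest for the Al response, 5, without OX CK replicate 1. The lowest for Al in OX, 26, came without OX Al replicate 3, and the next lowest, 30, without OX CK replicate 1.

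Without the member with the most counts, the log2 ratio of Al over CK run totals in WT was 5.81 for chromosome 3 (5.21 with it), 2.28 for the run from Glyma.13G176000 (1.88), 1.22 for the run from Glyma.13G291400 (1.80) and 2.45 for chromosome 16 (1.96). In the run from Glyma.13G291400 the log2 ratio of OX over WT then changed sign to -0.035 in CK (0.37), and in Al it was -0.27 (-0.48).

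With the replicate block, 34 members were higher with Al in OX and 35 in WT, 6 were higher in OX CK, 2 were higher and 1 lower in OX Al, and 2 had a smaller Al response in OX. In the paired comparisons the block changed no call of a named member. In the others the members called were not the same: in OX Al the call of Glyma.13G176300 ended (adjusted p = 0.0521) and Glyma.13G291400 was called lower (0.0388), and for the Al response that of Glyma.03G016200 ended (0.0593) and Glyma.16G135000 was called (0.043). The depth limits statements on members under 1 CPM.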

Other observations

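In some groups of some runs, a single library was the lowest or highest for most members, and in others none was. The share of all genes with the same low or high library was not computed. On chromosome 3, OX CK replicate 1 was the lowest of its group for 7 of 7 members and OX CK replicate 2 the highest for 6 of 7, and WT Al replicate 3 was the lowest for 6 of 7. On chromosome 16, WT Al replicate 3 was the lowest for 8 of the 8 tested members. In the run from Glyma.13G176000 the low libraries were mixed in WT Al, where replicate 1 was the lowest for 4 members, replicate 2 for 1 and replicate 3 for 3 of the 8 tested. They were also mixed on chromosome 3 in WT CK, where replicates 1 to 3 were the lowest for 3, 3 and 1 members. On chromosome 16 in OX Al they were the lowest for 3, 3 and 2 members.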
